A study of Oryctolagus cuniculus with 39 samples.

Results

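The genes described here are the WNT ligands, their receptors, the secreted proteins that block them and the nuclear factors that answer to them, in brown adipose tissue (BAT) of rabbits. They were chosen by symbol from the deposited expression table of the stromal vascular fraction: every WNT, FZD, SFRP and DKK gene that carries a number, together with LRP5, LRP6, WIF1, LEF1, TCF7, TCF7L1, TCF7L2 and AXIN2. This gave 42 of the 20589 genes in that table, and all 42 were found again by gene identifier among the 20183 genes of the whole-tissue table. By role they were 17 ligands, 11 receptors, 9 secreted inhibitors, 4 nuclear factors and the feedback inhibitor AXIN2.

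WNT proteins are secreted, lipid-modified signals that bind Frizzled (FZD) receptors. Together with the co-receptors LRP5 and LRP6 the canonical branch stabilises beta-catenin, which then works with the TCF/LEF factors in the nucleus. SFRP proteins and WIF1 bind WNT ligands outside the cell, whereas DKK1, DKK2 and DKK4 bind LRP5 and LRP6. In adipose tissue canonical WNT signalling, and WNT10B above all, is known as a brake on the conversion of progenitors into fat cells.

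RNA was sequenced in bulk from New Zealand White rabbits at day 1 and at 3, 6 and 12 weeks of age, and no treatment or genetic change is named in the labels. Interscapular BAT was taken whole (total iBAT, 12 libraries) and as its stromal vascular fraction (iBAT SVF, 12 libraries), a preparation meant to leave fat cells out. Subscapular BAT was taken as its stromal vascular fraction (sBAT SVF, 12 libraries), so that whole tissue was compared with age in 1 depot and the SVF in both. Each group had 3 libraries, and the labels do not say whether these came from separate animals, so p-values measure the spread between these libraries. The series title names the involution of BAT as its subject. The 3 single-cell samples of the series were not analysed here.

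Expression was read as FPKM, a level per transcript length and library size, with sums of 389593 to 548723 per library. The absolute depth is unknown. In total iBAT a relative depth estimated from low FPKM values, with a setting chosen after others had failed on simulated data, was 0.563 to 0.625 at day 1 and 1.341 to 1.388 at 12 weeks, so depth and age ran together. The tissue labels could be set against marker genes. The summed FPKM of 6 of 6 brown adipocyte markers was 6597 to 6852 in total iBAT at day 1 and 1530 to 1816 at 12 weeks, against 8.19 to 196 in the SVF libraries, in a table that was normalised separately. The general adipocyte list (6 of 8 markers) parted the preparations at each age, but less widely, and not across ages. Its sum in total iBAT was 960 to 1242 at day 1 and 6632 to 7290 at 12 weeks. At the same ages it was 375 to 726 and 273 to 564 in the iBAT SVF, and 264 to 299 and 588 to 1292 in the sBAT SVF. The iBAT SVF at 6 weeks (336 to 1342) and the sBAT SVF at 12 weeks overlapped with total iBAT at day 1. The 3 sBAT SVF libraries of 3 weeks stood apart, since 2 genes (ADORA1 and LOC100009266) held 63.9% to 80.4% of their FPKM, which lowers the FPKM of every other gene in them. To a lesser degree this held for the sBAT SVF at day 1, where these genes held 26.2% to 37.3%, against 5.21% to 8.81% at 12 weeks. In the iBAT SVF they held 2.02% to 8.71% at day 1 and 4.04% to 5.51% at 12 weeks. In total iBAT, replicate 3 of 3 weeks carried a skeletal muscle marker sum (4 of 6 markers in the table) of 4447, and replicate 2 of 3 weeks T cell markers, described below. Muscle markers were also present in the SVF, with sums of 17.0 to 1778 in iBAT and 543 to 2329 in sBAT at day 1. At 12 weeks these sums were 0.85 to 82.4 and 26.0 to 287, and at 3 weeks 280 to 423 and 60.3 to 1564. Each comparison is therefore given on the deposited FPKM and, where it differed, after median ratio scaling, which sets the median gene of the libraries level. Its divisors were 0.312 to 0.528 in the sBAT SVF libraries of 3 weeks and 0.946 to 1.454 in the other SVF libraries, so the low points of the sBAT SVF at 3 weeks in the plots by age are on the deposited scale.

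Genes that reached an FPKM of 1 in 3 or more of a table's libraries were tested with limma on log2(FPKM + 1), and p-values were adjusted by the Benjamini-Hochberg method over all genes tested. A gene was called at an adjusted p under 0.05. Fold changes on this scale understate the change of genes with low FPKM. The filter was passed by 27 of the 42 genes in total iBAT and by 31 in the SVF. The 10 that failed it in both tables were WNT3, WNT6, WNT7A, WNT8A, WNT8B, WNT9B, WNT10A, WNT16, FZD9 and DKK4.

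From day 1 to 12 weeks the called WNT genes rose in whole tissue, while in the iBAT SVF more of them fell than rose. On the deposited values all tested genes leaned the same way in these tissues, and after median ratio scaling their rises and falls were nearly level. In total iBAT 11 of the 27 tested genes rose and 0 fell by limma, where 31.3% of all tested genes rose and 15.7% fell (47% called in all), and 12 of the 27 had an unadjusted p under 0.05. After median ratio scaling 8 rose and 1, DKK3, fell, against 23.6% and 22.4% of all genes (46% called). In the iBAT SVF 5 of 31 rose and 11 fell, where 14.5% and 22.8% of all tested genes did so (37.3% called). Scaling gave 5 and 10, against 19.1% and 20.2% (39.3% called). In the sBAT SVF 8 of 31 rose and 4 fell, beside 38.3% and 5.86% of all genes (44.1% called). That split turned round with scaling, to 5 that rose and 9 that fell, against 14.8% and 15% (29.8% called). The median log2 fold change of the tested WNT genes was 0.54 in total iBAT, -0.30 in the iBAT SVF and 0.07 in the sBAT SVF, beside 0.19, -0.10 and 0.41 over all tested genes. Scaling moved the medians of all genes to 0.02, -0.01 and 0.02.

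The joint test of any change with age called 22 of 27 WNT genes in total iBAT (55.6% of all genes), 16 after scaling (54.3%) and 17 (45.3%) when replicates 2 and 3 of 3 weeks were left out, a choice made after seeing the data. It called 17 of 31 in the iBAT SVF (36.4%) and 16 after scaling (39.9%). In the sBAT SVF it called 27 of 31, where 93.5% of all genes were called, and 17 after scaling, where 49% were. On the deposited values the counts in total iBAT and the iBAT SVF stand above the share of all genes, after scaling that of total iBAT is close to it, and those of the sBAT SVF are close to it on both scales.

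**Figure D1:**
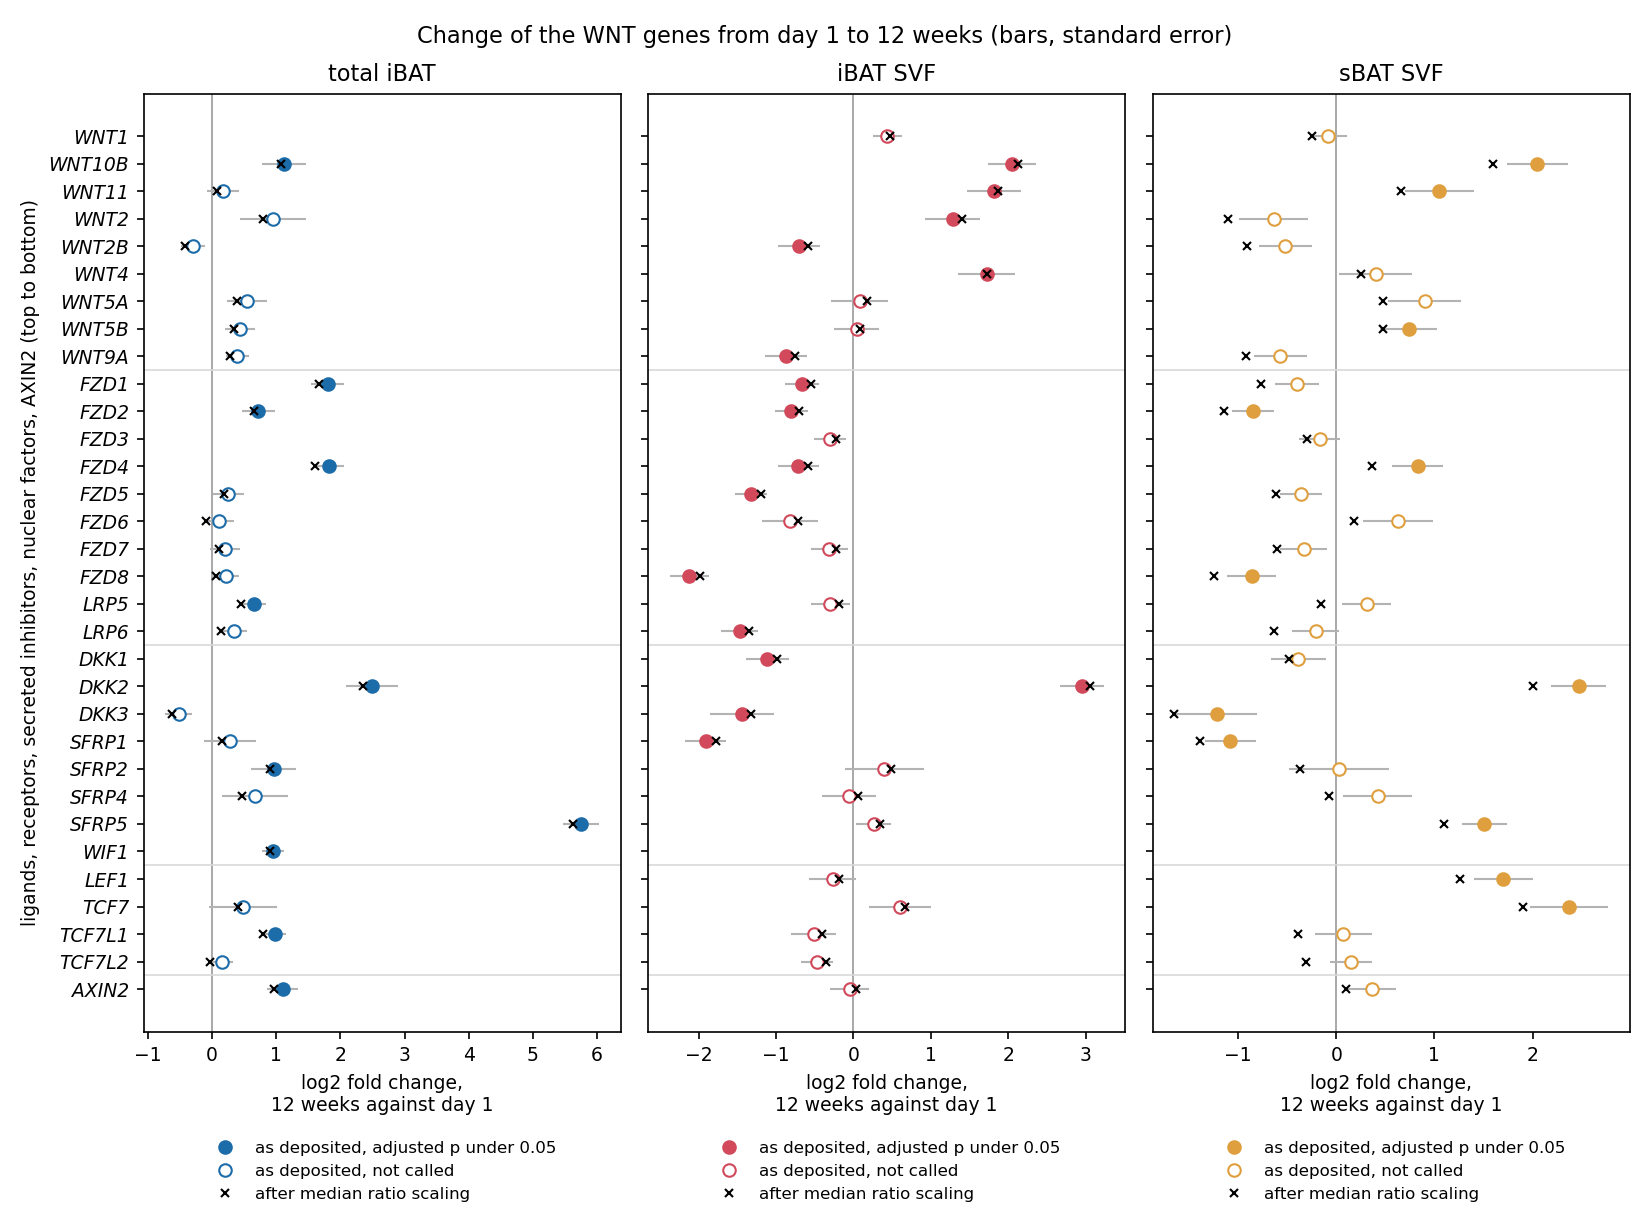
Log2 fold change of each tested WNT gene from day 1 to 12 weeks (x axis, log2(FPKM + 1) scale) in total iBAT, the iBAT SVF and the sBAT SVF, with genes grouped by role on the y axis. Circles are the deposited values with their standard error, filled where the adjusted p was under 0.05, and crosses are the values after median ratio scaling. SFRP5 in total iBAT, at 5.75, lies farthest to the right, and in the sBAT SVF the crosses lie to the left of the circles.

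Among the ligands, WNT10B rose in all 3 tissues and WNT2, WNT4 and WNT11 rose in the iBAT SVF. WNT10B, the ligand best known for holding back fat cell formation, measured 3.38, 8.2 and 4.32 FPKM at day 1 in the iBAT SVF and 30.5, 18.6 and 23.6 at 12 weeks. Its levels in the sBAT SVF were 2.69, 2.52 and 1.65 at day 1 and 10.1, 10.0 and 18.8 at 12 weeks. The groups did not overlap in either depot, and the libraries of 3 and 6 weeks (7.24 to 13.1 in the iBAT SVF and 3.14 to 10.3 in the sBAT SVF) were mostly intermediate on the deposited scale. After scaling the sBAT SVF held 7.87 to 15.9 of WNT10B at 3 weeks and 6.90 to 14.3 at 12 weeks, so that there the level of 3 weeks was not intermediate. The log2 fold change of WNT10B was 2.05 ± 0.31 (SE) in both, with limma adjusted p-values of 5.75e-05 and 4.03e-05.

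In total iBAT WNT10B was low throughout, at 0.14, 0.45 and 0.15 FPKM on day 1 and 1.52, 0.79 and 3.31 at 12 weeks. Its highest whole-tissue value, 4.17, was in a 6 weeks library. The groups of day 1 and 12 weeks did not overlap, and the log2 fold change was 1.12 ± 0.35 (adjusted p = 0.0211), a call that was lost when replicate 1 (0.0596) or 3 (0.0602) of day 1 or replicate 3 of 12 weeks (0.0933) was left out.

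WNT2, a canonical ligand, was the most abundant WNT by mean FPKM in every SVF group except the sBAT SVF of 3 weeks. The iBAT SVF stood at 28.5, 50.4 and 32.5 FPKM on day 1, at 20.8 to 51.4 at 3 weeks, at 38.1 to 56.3 at 6 weeks, and at 89.1, 91.2 and 86.8 at 12 weeks. The sBAT SVF began at 26.6, 24.2 and 26.8 on day 1 and held 1.42, 7.56 and 4.15 at 3 weeks, 11.5, 8.15 and 16.0 at 6 weeks, and 12.9, 16.3 and 19.99 at 12 weeks. At the 3 later ages every sBAT SVF library was below every iBAT SVF library of the same age, and at day 1 the sBAT SVF libraries also lay below, by less. After scaling the 3 weeks libraries held 4.55 to 14.3 of WNT2 in the sBAT SVF and 20.4 to 47.6 in the iBAT SVF, still without overlap. WNT2 rose in the iBAT SVF (log2 fold change 1.28 ± 0.35, adjusted p = 0.00804), whereas in the sBAT SVF the value was -0.64 ± 0.35 (adjusted p = 0.144), and -1.10 after scaling, which was called (0.0153). The difference between these changes was -1.93 ± 0.50 in the interaction test (adjusted p = 0.0169) and -2.50 after scaling (0.0146).

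WNT2 was lower in the sBAT SVF than in the iBAT SVF at each later age, with a log2 difference of -2.90 ± 0.35 (SE) at 3 weeks, -1.94 ± 0.35 at 6 and -2.39 ± 0.35 at 12 (adjusted p-values of 2.36e-06, 0.00624 and 0.000334). After scaling these were -1.87, -2.19 and -2.74, all called. The calls at 6 and 12 weeks held under every alternative run, including leaving out each library. In total iBAT WNT2 ranged from 0.88 to 4.81 on day 1 and from 4.04 to 9.30 at 12 weeks, groups that overlapped, and it was not called. The summed level of 7 adipose progenitor markers at 12 weeks was 12607 to 16314 in the iBAT SVF. In the sBAT SVF it was 6658 to 8519. At 6 weeks the sums were 7431 to 11161 in the iBAT SVF and 7650 to 11650 in the sBAT SVF, which overlapped. At 3 weeks they were 6507 to 9554 and 1743 to 4887 on the deposited scale. None of the defining markers (PDGFRA, DPP4 and PI16) was at 0. The part of these cells in the WNT2 difference was not tested. In bulk RNA, fewer cells of a type and less RNA per cell cannot be told apart.

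WNT4 and WNT11, ligands that can act outside the beta-catenin branch, also ended higher in the iBAT SVF. WNT4 was at 0.58, 1.62 and 0.39 FPKM on day 1 and at 5.35, 4.93 and 4.49 at 12 weeks, while the sBAT SVF held 0.34, 0.32 and 0 on day 1 and 0.25, 0.70 and 0.92 at 12 weeks. Thus the 12 weeks libraries of the 2 depots were far apart, although 1 iBAT SVF library of 6 weeks (4.37) already stood near the 12 weeks level. The rise of WNT4 in the iBAT SVF was 1.72 ± 0.37 (adjusted p = 0.00119) and the depot difference at 12 weeks -1.89 ± 0.37 (0.00217). Its interaction was -1.32 (adjusted p = 0.076).

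WNT11 went from 2.7, 1.64 and 1.25 FPKM to 11.3, 6.63 and 9.27 in the iBAT SVF (1.82 ± 0.35, adjusted p = 0.000488). The sBAT SVF went from 2.76, 3.56 and 0.99 to 4.17, 4.97 and 8.8 (1.05 ± 0.35, adjusted p = 0.0191). The groups did not overlap in either, but the sBAT SVF call was lost after scaling (0.18) and without day 1 replicate 3 (0.13) or 12 weeks replicate 3 (0.101). In total iBAT WNT11 was 0.44 to 2.28 over all ages.

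**Figure D2:**
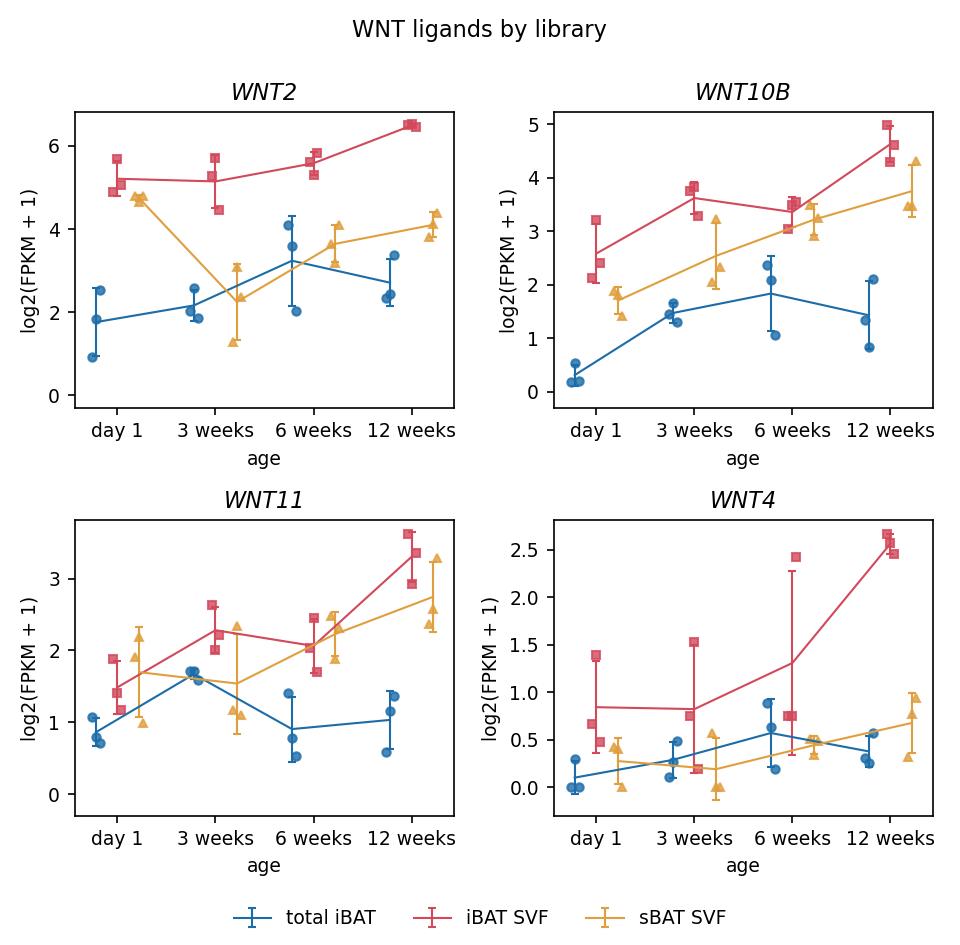
FPKM of WNT2, WNT10B, WNT11 and WNT4 in each library on the log2(FPKM + 1) scale (y axis) by age (x axis), with lines through the mean and bars of 1 SD over 3 libraries per group, for total iBAT, the iBAT SVF and the sBAT SVF. WNT2 separates the depots at 12 weeks (86.8 to 91.2 FPKM in the iBAT SVF and 12.9 to 19.99 in the sBAT SVF), and WNT10B is higher at 12 weeks than at day 1 in all 3 tissues.

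The other tested ligands moved less. WNT9A fell in the iBAT SVF from 6.45 to 7.36 FPKM at day 1 to 2.7 to 4.25 at 12 weeks (log2 fold change -0.87, adjusted p = 0.0142; 0.0656 without 12 weeks replicate 3). WNT2B fell there from 8.29 to 10.1 to 3.86 to 6.28 (-0.70, adjusted p = 0.0472), a call that was lost under 8 of the alternatives run, 5 of them leaving out 1 library (each library compared except 12 weeks replicate 1, 0.0736 to 0.185). WNT9A and WNT2B in the sBAT SVF were called lower after scaling only (-0.92 and -0.91, adjusted p-values of 0.00591 and 0.00555). WNT5B rose in the sBAT SVF by 0.74 (adjusted p = 0.0437) and was lost under 10 alternatives, among them leaving out day 1 replicate 1 or 3 or 12 weeks replicate 2 or 3 (0.0744 to 0.181). WNT5A, the best known non-canonical ligand, was 3.32 to 4.67 in the sBAT SVF at day 1 and 7.22 to 9.53 at 12 weeks and was not called (adjusted p = 0.0521). WNT1 stayed at or below 1.90 in every library.

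Of the ligands under the filter, 7 never exceeded an FPKM of 0.82 in any library. WNT9B, singled out after its values were seen, was the exception: it measured 1.04, 0.50 and 0.40 in the iBAT SVF and 0.76, 1.57 and 0.93 in the sBAT SVF on day 1, and at most 0.12 in every SVF library of the later ages. It was not tested.

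Among the receptors those called in the iBAT SVF fell and those called in whole tissue rose, the latter after scaling at about the share of all genes. In the iBAT SVF 6 of 10 tested receptors fell and 0 rose, where 22.8% of all genes fell, and after scaling 5 fell and 0 rose, where 20.2% fell. In total iBAT 4 of 9 rose and 0 fell, beside 31.3% of all genes that rose, and after scaling 2 of 9 rose, which is close to the 23.6% of all genes. The sBAT SVF had 1 that rose and 2 that fell (38.3% and 5.86% of all genes), and after scaling 0 and 4 (14.8% and 15%). Over the same ages in the iBAT SVF the marker sum of smooth muscle and pericytes (5 of 6 markers, CNN1 not matched) went from 878 to 1053 to 143 to 248, that of macrophages (4 of 5, C1QA not matched) from 197 to 238 to 46.5 to 66.3, and that of Schwann cells (4 of 4) from 297 to 723 to 29.1 to 128, with none of their defining markers at 0. The cycling sum (4 of 4) went from 25.3 to 31.7 to 9.08 to 15.1, and the endothelial sum (5 of 5) from 235 to 538 to 102 to 266, with overlap. The skeletal muscle sum (4 of 6) was 17.0 to 1778 at day 1 and 0.85 to 82.4 at 12 weeks, also with overlap. The adipose progenitor sum (7 of 7) rose, from 4131 to 5683 to 12607 to 16314. The part of these cells in the falls of the receptors was not tested. FZD4 was the most abundant Frizzled gene in the mean of every group on the FPKM scale, with 68.7% to 85.6% of the summed FZD level in total iBAT.

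FZD4, which also serves as the receptor for norrin in blood vessels, measured 79.7, 53.1 and 46.8 FPKM in total iBAT at day 1 and 196, 283 and 162 at 12 weeks. It was already at 181 to 237 at 3 weeks. The level at day 1 was below all 9 later libraries, and the log2 fold change at 12 weeks was 1.82 ± 0.23 (adjusted p = 5.88e-05; 1.60 after scaling). Over the same ages the sum of 6 of 8 listed adipocyte markers (PLIN1 and PLIN4 were not matched) went from 960 to 1242 to 6632 to 7290. That of 5 endothelial markers went from 291 to 407 to 177 to 233, with no defining marker at 0. Of the defining adipocyte markers (ADIPOQ, PLIN1 and PLIN4) only ADIPOQ could be checked, and it was not at 0. The part of these cells in the FZD4 change was not tested.

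In the SVF, FZD4 parted between depots. The iBAT SVF went from 28.8, 15.7 and 27.9 FPKM to 11.4, 21.0 and 11.02 (-0.71 ± 0.26, adjusted p = 0.0351), with overlapping groups, and the sBAT SVF from 21.8, 15.4 and 21.6 to 36.3, 43.2 and 28.0 (0.83 ± 0.26, adjusted p = 0.013), with none. Neither call is firm: the first was lost without day 1 replicate 1 or 3 or 12 weeks replicate 1 or 3 (0.136 to 0.149), and the second after scaling (0.259) and without day 1 replicate 2 (0.0651) or 12 weeks replicate 2 (0.0673). The depot difference at 12 weeks, 1.29 ± 0.26 (adjusted p = 0.00263), held under every alternative run and was 0.91 after scaling (0.016). The interaction, 1.54 ± 0.36 (adjusted p = 0.0109), was 0.95 after scaling and not called (0.136). The endothelial marker sum was 102 to 266 in the iBAT SVF and 263 to 516 in the sBAT SVF at 12 weeks. At that age the adipocyte sum was 273 to 564 and 588 to 1292, and the brown adipocyte sum 53.6 to 58.7 and 117 to 196. The part of these cells in the depot difference was not tested.

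FZD8 and FZD5 had a peak at 3 weeks in whole tissue. FZD8 was at 13.6, 12.1 and 14.1 FPKM in total iBAT at 3 weeks, against 1.71 to 3.55 at day 1, 1.94 to 3.28 at 6 weeks and 2.35 to 3.2 at 12 weeks. FZD5 was at 3.41, 3.40 and 3.44 at 3 weeks and between 0.14 and 1.03 in the 9 other libraries. All 3 libraries of 3 weeks stood above all others for both genes, including the 2 that carried muscle or T cell markers. The joint test gave adjusted p-values of 2.43e-05 for FZD8 and 0.000517 for FZD5 (5.95e-05 and 0.00108 after scaling), and neither was called at 12 weeks against day 1. FZD5 met the filter mainly through the libraries of 3 weeks, where it was high, so its p-value is not independent of the filter.

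In the iBAT SVF all libraries of 3 weeks were below those of day 1 for both genes, before and after scaling. In the sBAT SVF the same held on the deposited scale, but after scaling FZD8 was 8.60 to 15.8 at 3 weeks against 9.01 to 10.9 at day 1, and FZD5 0.40 to 1.86 against 1.84 to 1.99. FZD8 fell in the iBAT SVF from 15.6, 15.4 and 15.8 FPKM to 2.07, 4.54 and 2.31 (-2.12 ± 0.25, adjusted p = 3.15e-06). It fell in the sBAT SVF from 10.5, 9.60 and 10.5 to 4.34, 5.36 and 5.92 (-0.86 ± 0.25, adjusted p = 0.00853). The groups did not overlap in either depot. The fall in the iBAT SVF was the larger by 1.26 ± 0.35 (interaction, adjusted p = 0.0216), which was 0.73 and not called after scaling (0.278). FZD5 fell in the iBAT SVF from 2.97, 2.49 and 3.07 to 0.88, 0.63 and 0.19 (-1.32 ± 0.21, adjusted p = 0.000109), while the sBAT SVF held 1.77 to 1.97 on day 1 and 1.16, 1.51 and 1.12 at 12 weeks, which was not called.

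FZD1 and FZD2 moved in opposite directions in whole tissue and in its SVF. FZD1 rose in total iBAT from 1.17, 1.63 and 1.13 FPKM to 6.84, 5.84 and 8.50 (1.80 ± 0.26, adjusted p = 0.000184), and was at 5.02 or above in all libraries after day 1. Its values in the iBAT SVF went from 7.86, 8.40 and 7.00 to 3.90, 5.99 and 3.90 (-0.66 ± 0.22, adjusted p = 0.0244), a call lost after scaling (0.0594) and when either of day 1 replicates 1 and 2 or of 12 weeks replicates 1 and 3 was left out (0.0615 to 0.0912). FZD2 went from 0.23, 0.13 and 0.74 to 0.84, 1.58 and 1.28 in total iBAT (0.72 ± 0.26, adjusted p = 0.0396), which was lost after scaling (0.0598), under the replicate block (0.0595) and when either of day 1 replicates 1 and 2 or of 12 weeks replicates 2 and 3 was left out (0.093 to 0.127). Its falls in the SVF were firmer and held under every alternative run. They were from 4.27, 4.69 and 3.66 to 2.27, 2.38 and 1.38 in the iBAT SVF (-0.80 ± 0.21, adjusted p = 0.00531) and from 2.57, 6.55 and 3.91 to 1.76, 1.45 and 2.32 in the sBAT SVF (-0.85 ± 0.21, adjusted p = 0.0027).

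The co-receptor LRP6 fell in the iBAT SVF from 14.1, 12.2 and 13.8 FPKM to 4.73, 4.62 and 3.26 (-1.47 ± 0.24, adjusted p = 0.000132). LRP6 in the sBAT SVF was 9.81, 11.5 and 8.43 on day 1 and 9.68, 11.5 and 5.10 at 12 weeks, with overlapping groups (-0.21, adjusted p = 0.492), though scaling gave a called -0.64 (0.00911). The depot difference of 0.86 ± 0.24 at 12 weeks (adjusted p = 0.0186) was not called after scaling (0.0698) or without iBAT SVF replicate 3 (0.103) or sBAT SVF replicate 1 (0.0861) or 2 (0.121). Its relative LRP5 was 15.0 to 26.2 and 10.5 to 20.9 in the iBAT SVF at day 1 and 12 weeks, and rose in total iBAT from 7.04 to 8.74 to 11.1 to 15.7 (0.65, adjusted p = 0.0169; 0.0618 after scaling, 0.0577 without day 1 replicate 2 and 0.0722 without 12 weeks replicate 3).

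FZD6 was the second Frizzled gene of whole tissue, at 28.2, 21.2 and 15.4 FPKM on day 1 and 21.1, 27.5 and 20.1 at 12 weeks, with overlapping groups. In the SVF it was 5.74, 10.1 and 4.86 in iBAT and 21.7, 16.7 and 10.0 in sBAT at 12 weeks, which overlapped by the narrow margin of 10.1 against 10.0. That difference, 1.11 ± 0.36 (adjusted p = 0.0318), was not called after scaling (0.15) or without either depot's replicate 1, iBAT SVF replicate 3 or sBAT SVF replicate 2 (0.0995 to 0.147). FZD7 and FZD3 were at most 3.45 and 1.39 in any library and were not called at 12 weeks in any tissue in which they were tested. FZD9 did not exceed 0.92.

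**Figure D3:**
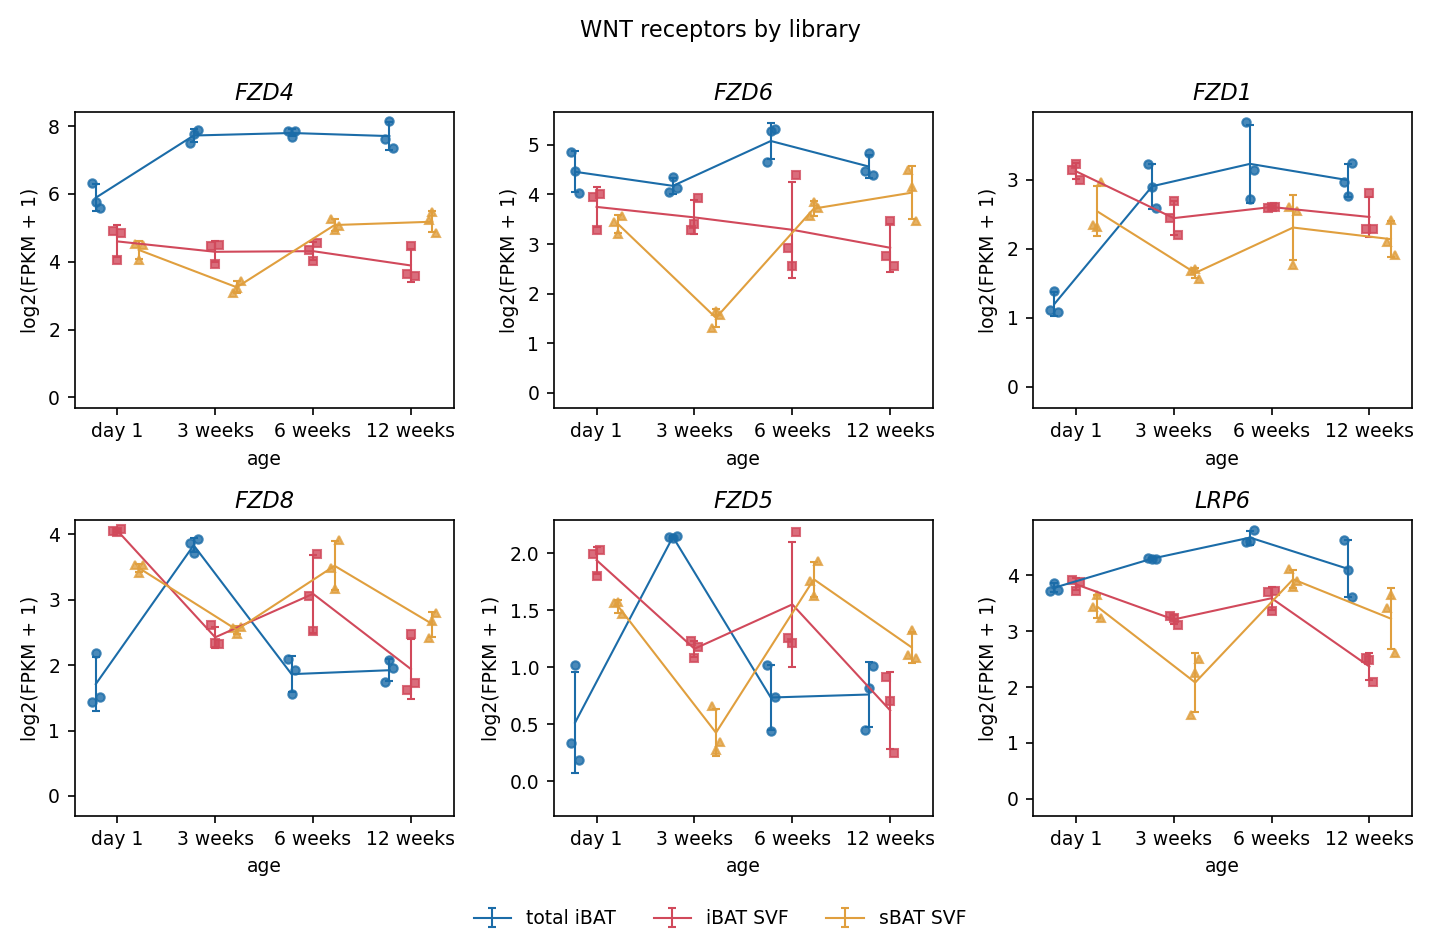
FPKM of FZD4, FZD6, FZD1, FZD8, FZD5 and LRP6 in each library on the log2(FPKM + 1) scale (y axis) by age (x axis), with lines through the mean and bars of 1 SD over 3 libraries per group. In total iBAT FZD8 and FZD5 peak at 3 weeks (12.1 to 14.1 and 3.40 to 3.44 FPKM), and LRP6 ends lowest in the iBAT SVF (3.26 to 4.73 FPKM at 12 weeks).

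Among the secreted inhibitors, SFRP5 rose in whole tissue more than any other tested WNT gene and DKK2 rose in all 3 tissues. SFRP5, a protein that fat cells are known to secrete, measured 1.44, 1.0 and 0.50 FPKM in total iBAT at day 1, 37.7, 46.4 and 28.8 at 3 weeks, 113, 97.5 and 63.8 at 6 weeks, and 72.7, 111 and 136 at 12 weeks. No library of day 1 came near those of the later ages. The mean FPKM was 109-fold higher at 12 weeks, and the log2 fold change was 5.75 ± 0.28 (adjusted p = 1.11e-07), with a range of 5.55 to 6.68 over the alternatives. The adipocyte marker sums given for FZD4 were 960 to 1242 at day 1, 1929 to 3114 at 3 weeks, 5263 to 6322 at 6 weeks and 6632 to 7290 at 12 weeks, and their part in the result was not tested.

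In the SVF SFRP5 reached at most 8 FPKM. The sBAT SVF went from 1.24, 2.23 and 1.65 to 5.61, 6.48 and 8 (1.51 ± 0.23, adjusted p = 4.5e-05; 1.10 and 0.00702 after scaling). The iBAT SVF held 2.45, 2.56 and 4.01 on day 1, 0.29 to 0.39 at 6 weeks and 2.55, 4.54 and 4.33 at 12 weeks, so that day 1 and 12 weeks overlapped and the low point was at 6 weeks. The adipocyte marker sum in the sBAT SVF was 264 to 299 at day 1 and 588 to 1292 at 12 weeks. In the iBAT SVF it was 375 to 726 at day 1, 336 to 1342 at 6 weeks and 273 to 564 at 12 weeks. The brown adipocyte sum there was 23.1 to 71.2, 8.19 to 11.1 and 53.6 to 58.7 at these ages. In the sBAT SVF it was 105 to 110 at day 1 and 117 to 196 at 12 weeks. The part of these cells in the SFRP5 values was not tested. The depot difference at 12 weeks, 0.70 (adjusted p = 0.0389), was lost under 10 alternatives, among them scaling (0.473) and leaving out any 12 weeks library except iBAT SVF replicate 2 (0.0634 to 0.184).

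DKK2, which binds LRP6 and can act as a weak agonist or an antagonist, was the leading DKK gene of the SVF from 3 weeks on. It measured 8.88, 17.9 and 14.7 FPKM in the iBAT SVF at day 1, 35.4 to 57.3 at 3 weeks, 55.7 to 76.5 at 6 weeks and 142, 109 and 85.1 at 12 weeks. The sBAT SVF measured 7.57, 10.1 and 6.69 at day 1, 15.6 to 27.3 at 3 weeks, 60.9 to 96.8 at 6 weeks and 38.3, 49.2 and 62.9 at 12 weeks. After scaling the sBAT SVF of 3 weeks held 49.5 to 51.6 of DKK2. The depots overlapped at day 1, and at 12 weeks the iBAT SVF was higher with no overlap. The log2 fold change was 2.95 ± 0.28 in the iBAT SVF and 2.47 ± 0.28 in the sBAT SVF (adjusted p-values of 2.08e-07 and 1.59e-06). The depot difference at 12 weeks was -1.14 ± 0.28 (adjusted p = 0.00876), and was lost without iBAT SVF replicate 1 (0.0516) or sBAT SVF replicate 1 (0.0576).

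In total iBAT DKK2 went from 1.42, 1.11 and 1.88 FPKM to 12.8, 9.12 and 17.7 (2.49 ± 0.41, adjusted p = 0.0004). The 6 weeks libraries spread from 7.38 to 26.5. All 9 later libraries were above all 3 of day 1. The adipose progenitor marker sum went from 404 to 629 at day 1 to 1727 to 2826 at 12 weeks in total iBAT, and from 4131 to 5683 to 12607 to 16314 in the iBAT SVF. Its part in the DKK2 result was not tested.

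SFRP1 and DKK3 fell in both SVF depots. SFRP1 went from 9.19, 9.68 and 7.27 FPKM to 1.76, 1.63 and 1.33 in the iBAT SVF (-1.91 ± 0.26, adjusted p = 1.67e-05) and from 5.83, 7.05 and 4.17 to 1.77, 2.94 and 1.74 in the sBAT SVF (-1.08 ± 0.26, adjusted p = 0.00235). The groups did not overlap in either depot. In total iBAT SFRP1 was highest at 3 weeks, at 5.43, 16.5 and 4.15, against 0.71 to 2.21 at day 1 and 1.35 to 2.66 at 12 weeks. The value of 16.5 was in replicate 2, the library with T cell markers, and the joint test gave an adjusted p of 0.0091.

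DKK3, a family member that does not bind LRP6 as the others do, went from 17.1, 16.7 and 9.89 FPKM to 2.26, 11.8 and 3.19 in the iBAT SVF (-1.44 ± 0.41, adjusted p = 0.00945). One library of 12 weeks, replicate 2, therefore overlapped with day 1, and the call was lost without replicate 1 (0.0706) or replicate 3 (0.0509) of 12 weeks. The sBAT SVF went from 18.2, 24.03 and 19.7 to 6.68, 10.8 and 7.66 (-1.22 ± 0.41, adjusted p = 0.0206; -1.65 and 0.00345 after scaling), which was lost without day 1 replicate 2 (0.0645) or 12 weeks replicate 1 (0.0737) or 3 (0.0519). Levels of DKK3 at 3 and 6 weeks were 1.32 to 6.19 in the depots on the deposited scale, and after scaling the sBAT SVF held 3.47 to 11.7 at 3 weeks and 2.47 to 3.41 at 6 weeks. In total iBAT DKK3 was 0.92 to 1.16 at day 1 and 0.14 to 0.61 at 12 weeks (-0.52, adjusted p = 0.0605; called after scaling at 0.0255).

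SFRP4 was the most abundant of these genes in the SVF on the FPKM scale and was not called at 12 weeks in any tissue. It held 92.0% to 96.6% of the summed SFRP level in the SVF groups, at 165 to 368 FPKM in the iBAT SVF at day 1 and 176 to 311 at 12 weeks. In total iBAT it was 7.33 to 22.4 at day 1, 38.4 to 72.1 at 3 weeks, 30.8 to 121 at 6 weeks and 11.5 to 34.1 at 12 weeks, and the joint test called it (adjusted p = 0.00965). SFRP5 replaced it as the leading SFRP gene of whole tissue, with 54.0% of the sum at 6 weeks and 80.0% at 12 weeks. SFRP2 rose in total iBAT by 0.96 (adjusted p = 0.0397), with overlapping groups, and was lost under 8 alternatives, among them leaving out day 1 replicate 1 or 3 or 12 weeks replicate 2 or 3 (0.0755 to 0.167). WIF1 rose there from 0.13 to 0.47 to 1.38 to 1.51 (0.95, adjusted p = 0.00073) and stayed at or below 0.49 in the SVF. It met the filter in total iBAT only through ages after day 1, and the call also held with no filter. DKK1 fell in the iBAT SVF from 2.08 to 2.56 to 0.49 to 0.67 (-1.11, adjusted p = 0.00441). DKK4 did not exceed 0.47.

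**Figure D4:**
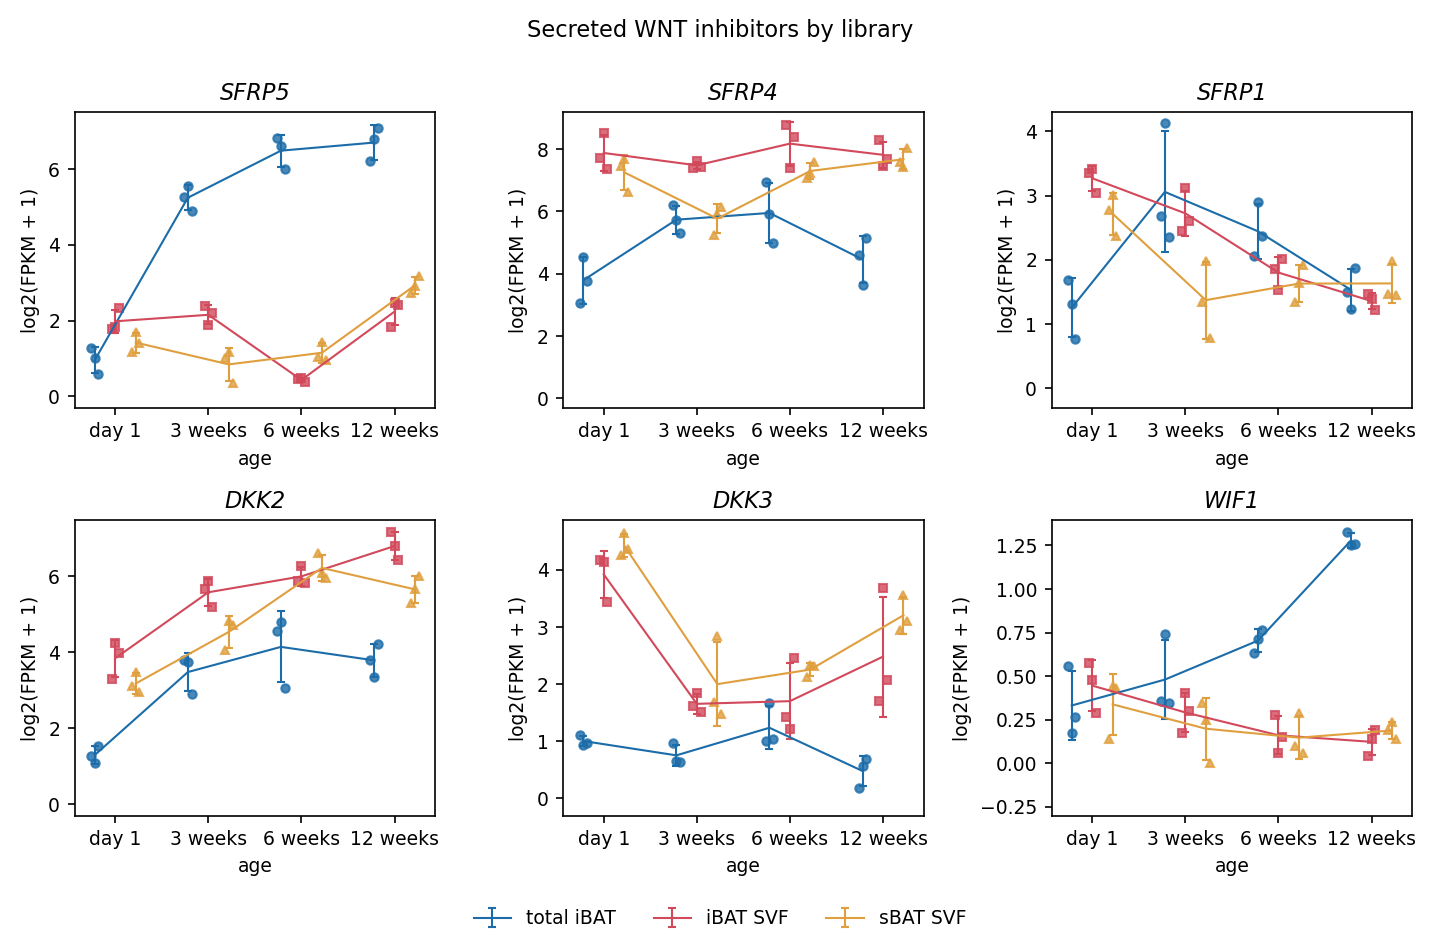
FPKM of SFRP5, SFRP4, SFRP1, DKK2, DKK3 and WIF1 in each library on the log2(FPKM + 1) scale (y axis) by age (x axis), with lines through the mean and bars of 1 SD over 3 libraries per group. SFRP5 separates total iBAT (72.7 to 136 FPKM at 12 weeks) from the SVF libraries (at most 8, in a separately normalised table), and DKK2 is higher at 12 weeks than at day 1 in all 3 tissues.

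The nuclear factors TCF7 and LEF1, which are also expressed at high levels in T cells, rose in the sBAT SVF at 12 weeks. TCF7 went from 3.44, 5.61 and 3.18 FPKM at day 1 to 46.4, 23.2 and 13.7, and LEF1 from 1.77, 2.61 and 2.66 to 19.0, 8.89 and 5.29. At 12 weeks in the iBAT SVF TCF7 was 1.39, 6.91 and 3.15 and LEF1 0.69, 1.75 and 1.09. The sBAT SVF libraries of 12 weeks were above all other SVF libraries for both genes. The log2 fold change was 2.37 ± 0.40 for TCF7 and 1.70 ± 0.30 for LEF1 (adjusted p-values of 0.000108 and 0.000177), and the depot difference at 12 weeks 2.58 ± 0.40 and 2.33 ± 0.30 (0.000472 and 0.000144). These 4 calls held under every alternative run.

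The summed FPKM of 7 of 7 T cell markers moved with both genes. In the sBAT SVF at 12 weeks it was 125, 71.6 and 48.0 in replicates 1, 2 and 3, the same order as TCF7 and LEF1, and in the iBAT SVF it was 8.14, 28.1 and 11.9. Earlier SVF libraries lay between 2.96 and 22.4. The B cell sum (4 of 5 markers, CD79A not matched) was 21.4 to 47.2 in the sBAT SVF at 12 weeks. In the iBAT SVF it was 3.11 to 10.6. The erythroid sum was 33688 to 44202 in the sBAT SVF and 5307 to 7176 in the iBAT SVF at that age. At day 1 the sBAT SVF held a B cell sum of 1.25 to 4.44 and an erythroid sum of 15967 to 44986. In total iBAT 1 library, replicate 2 of 3 weeks, held 9.61 of TCF7 and 3.72 of LEF1 with a T cell sum of 32.1, where the 2 others of its age held 0.68 and 0.71 of TCF7 with sums of 1.68 and 1.48. No defining T or B cell marker in the data was at 0 throughout a group, and CD79A, a defining B cell marker, could not be checked. The part of these cells in the results for TCF7 and LEF1 was not tested.

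**Figure D5:**
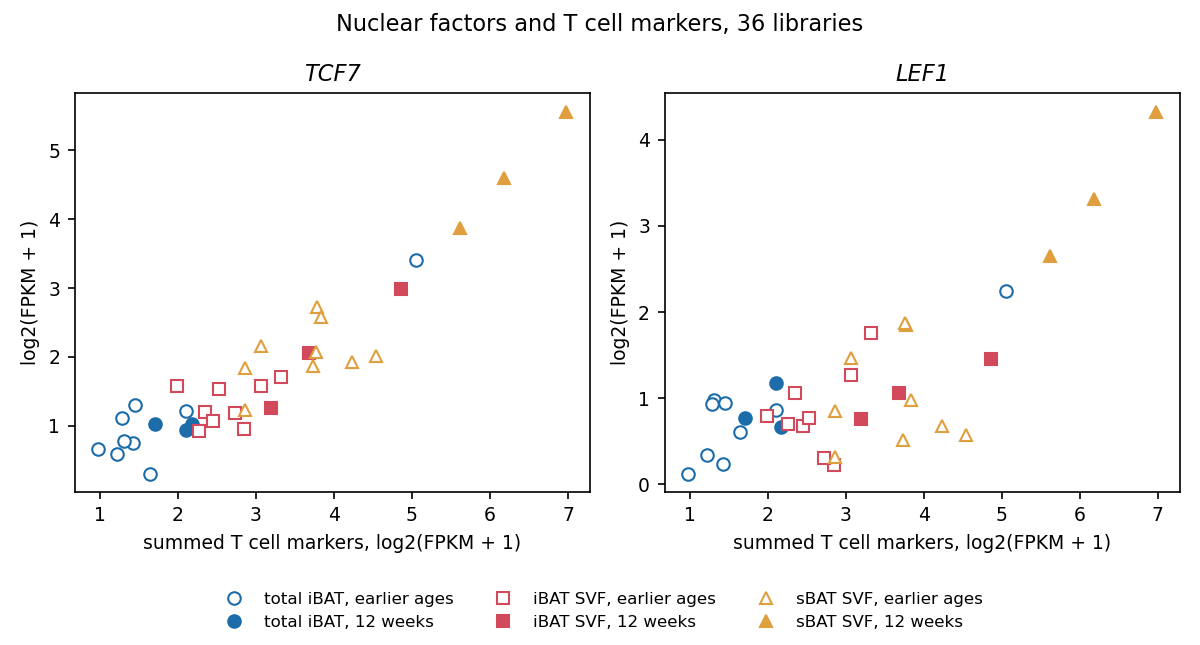
TCF7 and LEF1 (y axes) against the summed FPKM of 7 T cell markers (x axes), all on the log2(FPKM + 1) scale, with 1 point per library for the 36 libraries and filled symbols for 12 weeks. The 3 filled sBAT SVF triangles, with marker sums of 48.0 to 125 FPKM, are highest on both axes, and total iBAT replicate 2 of 3 weeks stands apart from the other total iBAT circles.

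TCF7L1 and TCF7L2, the factors of the family that predominate in tissues other than lymphoid ones, were not called with them. In the SVF neither was called at 12 weeks against day 1, with values of 10.99 to 29.8 FPKM for TCF7L1 and 15.7 to 27.8 for TCF7L2 in the libraries of those ages. TCF7L1 rose in total iBAT from 7.91 to 9.96 to 16.7 to 20.7 (0.98 ± 0.17, adjusted p = 0.000683), a call that held under every alternative run. AXIN2, a widely used target gene of canonical WNT signalling and a feedback inhibitor, rose in total iBAT from 1.10, 2.32 and 1.5 to 4.24, 4.63 and 4.82 (1.10 ± 0.24, adjusted p = 0.00292), also under every alternative. In the SVF it was not called: 1.59 to 3.40 in the iBAT SVF over day 1 and 12 weeks, and 0.64 to 1.05 at day 1 and 1.28 to 1.49 at 12 weeks in the sBAT SVF.

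Between the depots the number of WNT genes called differed by age, as did the share of all genes called. At day 1 limma called 0 of 31, 8 with an unadjusted p under 0.05, where 0.414% of all genes were called (0.0377% higher and 0.377% lower in the sBAT SVF), and 0 after scaling (0.158%). Without the sBAT SVF libraries of 3 weeks in the fit, a choice made after seeing the data, 2 were called at day 1, where 3.66% of all genes were. At 3 weeks 21 were lower and 0 higher in the sBAT SVF, where 76% of all genes were lower and 0.331% higher (76.3% called), with a median over all genes of -0.95. After scaling 3 were higher (FZD8, DKK3 and TCF7) and 2 lower (WNT2 and FZD6), against 3.91% and 3.96% of all genes (7.87% called). The median of the tested WNT genes on the deposited values was -0.79. FZD8 was 4.54 to 4.97 FPKM in the sBAT SVF and 4 to 5.1 in the iBAT SVF at that age, and 8.60 to 15.8 and 3.76 to 4.78 after scaling.

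At 6 weeks 1 gene, WNT2, was called lower (2.47% of all genes called, 2.12% higher and 0.347% lower), and after scaling WNT9A as well (1.05% called). At 12 weeks 6 of 31 were higher in the sBAT SVF (FZD4, FZD6, LRP6, TCF7, LEF1 and SFRP5) and 4 lower (WNT2, WNT4, WNT10B and DKK2), where 20.4% of all genes were higher and 1.85% lower (22.2% called). After scaling 3 were higher (FZD4, TCF7 and LEF1) and the same 4 were lower, against 4.29% and 5.48% (9.78% called). The WNT10B difference, -0.88 ± 0.31 (adjusted p = 0.0484; -1.22 and 0.0157 after scaling), was lost without replicate 1 or 3 of the iBAT SVF or 1 or 2 of the sBAT SVF (0.125 to 0.179). Leaving out each library moved the count of 10 to between 5 and 13, and it was 6 or less without replicate 1 or 3 of the iBAT SVF or replicate 1 or 2 of the sBAT SVF. The share of all genes called moved with it, from 22.2% to between 6.88% and 25.2%. Without the libraries just named that share was 6.88% to 10.4%.

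The test of whether the change from day 1 to 12 weeks differed between depots called 9 of 31 genes, 8 of them with the higher change in the sBAT SVF and WNT2 with the lower, where 18.4% of all genes were called (18.1% higher and 0.249% lower). After scaling WNT2 alone was called, against 1.26% of all genes (0.723% higher and 0.535% lower). The median over all genes moved from 0.51 to 0.02 with that scaling, and over the 31 WNT genes from 0.48 to 0.01.

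Other genes of the pathway were taken from a list of 67, of which 56 were matched by symbol and 40 were tested in each table. By limma 15 rose and 3 fell in total iBAT, where 31.3% and 15.7% of all genes did so, and 12 and 6 after scaling (23.6% and 22.4%). In the iBAT SVF 5 rose and 14 fell, beside 14.5% and 22.8% of all genes, and 6 and 13 after scaling (19.1% and 20.2%). The sBAT SVF had 8 that rose and 4 that fell, beside 38.3% and 5.86%, and 2 and 7 after scaling (14.8% and 15%). RSPO3, a secreted amplifier that works by keeping Frizzled receptors on the cell surface, rose in total iBAT from 3.61, 1.05 and 1.57 FPKM to 49.5, 64.4 and 37.9 (4.12 ± 0.31, adjusted p = 1.5e-06). Its receptor LGR4 fell in the iBAT SVF from 7.01, 6.48 and 5.77 to 2.25, 2.31 and 1.22 (-1.36 ± 0.28, adjusted p = 0.000971). TRABD2B, a protease that inactivates WNT ligands, rose in total iBAT from 1.70, 1.42 and 1.12 to 23.5, 29.4 and 31.9 (3.60 ± 0.34, adjusted p = 8.07e-06). The inhibitor SOSTDC1 fell there from 6.44, 3.39 and 2.25 to 0.25, 0 and 0 (-2.14 ± 0.27, adjusted p = 6.73e-05).

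In the iBAT SVF PORCN, the enzyme that attaches the lipid to WNT ligands, rose from 6.73, 12.1 and 9.74 FPKM to 33.5, 24.8 and 26.2 (1.49 ± 0.32, adjusted p = 0.00122). APCDD1, a membrane-bound inhibitor, rose there from 4.48, 6.81 and 6.32 to 24.5, 33.5 and 17.9 (1.91 ± 0.32, adjusted p = 0.00014). ZNRF3, which removes Frizzled receptors from the surface, fell from 4.47, 4.45 and 3.71 to 1.70, 1.69 and 0.73 (-1.16 ± 0.22, adjusted p = 0.000517). For all 3 the groups did not overlap. Among intracellular genes APC (-1.07), the co-repressor TLE1 (-1.31) and the planar polarity gene DAAM1 (-1.0) fell in the iBAT SVF, and DVL3 (1.12), BCL9L (1.04), PRICKLE2 (0.88) and the receptors ROR1 (0.61) and ROR2 (0.95) rose in total iBAT, with limma adjusted p-values from 6.84e-05 for DVL3 to 0.033 for ROR1.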

How the data were processed

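Bulk RNA-seq of 36 libraries was read from 2 tables of FPKM values that the authors deposited, 1 for total iBAT and 1 for the SVF, each normalised separately. The submitters' processing notes name HISAT2 2.0.4, Bowtie2 2.2.5 and the build OryCun2.0, and how they were used is not given in the sources used here. No coordinates or sequences are printed.

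A gene was kept where 3 or more libraries of its table reached an FPKM of 1 (12853 in total iBAT, 13274 in the SVF). Values were transformed to log2(FPKM + 1), with a pseudocount of 1. Each table was fitted with 1 mean per group in limma 3.58.1 (R 4.3.3), with moderation along a variance trend. Two-sided p-values were adjusted by Benjamini-Hochberg over all genes tested in each comparison. The fit was also run on values simulated from the mean and residual spread of each gene. These held no shifts in scale between libraries, so that run cannot show how the fit handles such shifts. The genes, lists and tests were chosen with earlier results of these data known.

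Values for every library are given for genes called in at least 2 tissues, the 3 largest rises and falls per tissue, depot differences of at least 1 (log2), and the interaction. Pathway genes named are the 2 largest called changes per role. Alternatives were a pseudocount of 0.1, no filter, a filter at 5, median ratio scaling, leaving out 2 dominant genes with rescaling, a replicate block, the libraries of 1 depot alone and leaving out each library. Leaving out the sBAT SVF libraries of 3 weeks, or total iBAT replicates 2 and 3 of 3 weeks, was added after the data were seen.

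The replicate numbers are not stated to pair the depots, so the fit has no block. The deviations of same-numbered iBAT and sBAT SVF libraries from their group means correlated at 0.065 to 0.584 at day 1, at -0.28 to 0.193 at 3 and 6 weeks, and at 0.252 to 0.5 at 12 weeks.

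The relative depth is a selected estimate. It rests on ratios of low FPKM values, and 9 settings were tried. Of these, 6 failed to recover simulated depths, and the gene lengths in the simulation were also changed before the 3 that passed. In total iBAT those 3 gave ratios of deepest to shallowest library of 2.72 to 2.77, with 74.2% to 80.3% of library pairs within 0.1 (log2) of the joint solution. The SVF estimate moved with the setting and is not reported.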

Additional observations from a re-analysis of the deposited data

Results flagged for a closer look

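The change from day 1 to 12 weeks differed between the depots for 9 genes in limma's interaction test, given as the change in the sBAT SVF minus that in the iBAT SVF on the log2 scale. The difference was -1.93 for WNT2, 1.97 for LEF1, 1.76 for TCF7, 1.54 for FZD4, 1.46 for FZD6, 1.26 for FZD8, 1.26 for LRP6, 1.26 for SFRP5 and 0.96 for FZD5. After median ratio scaling the value for WNT2 was -2.50 and still called, and the other 8, between 0.58 and 1.45, were not. The calls for FZD6, TCF7 and FZD5 were each lost when any of at least 8 of the 12 libraries compared was left out. FZD8 was lost without any of 4 libraries (0.0502 to 0.0649), LRP6 without any of 3 (0.0569 to 0.0677) and SFRP5 without iBAT SVF day 1 replicate 3 (0.055). For TCF7 and LEF1 the T cell marker sum in the sBAT SVF at 12 weeks (48.0 to 125 FPKM) stands beside the difference, and its part was not tested.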

How the results depend on the processing

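Of 59 calls of single WNT genes at 12 weeks against day 1, between depots at 6 and 12 weeks and in the interaction, 33 were kept under all alternatives run and 35 when each library was left out, and 0 changed direction. A filter at an FPKM of 5 left 13 of the WNT genes to be tested in total iBAT. Of these, 6 were called at 12 weeks against day 1 (52.2% of all genes called), where 11 of 27 were under the main filter. For any change with age 12 of the 13 were called (59.9% of all genes), where 22 of 27 were under the main filter. Median ratio scaling and leaving out the 2 dominant genes gave 17 and 15 genes (27 as deposited) for any change with age in the sBAT SVF, 5 and 7 (21) between depots at 3 weeks, 2 and 2 (1) at 6 weeks, and 1 and 1 (9) in the interaction. The share of all genes called moved too, to 49% and 46.8%, 7.87% and 16%, 1.05% and 9.76%, and 1.26% and 0.693%, in that order. A pseudocount of 0.1 gave 5 in the interaction (10.6% of all genes). Without the sBAT SVF libraries of 3 weeks, an alternative chosen after seeing the data, 2 genes were called between depots at day 1 (3.66% of all genes) and 3 at 6 weeks (10.2%). Leaving out each library gave 1 to 2 genes between depots at 6 weeks (2 without sBAT SVF replicate 3), 5 to 13 at 12 weeks and 4 to 10 in the interaction, with 4 or 5 without iBAT SVF day 1 replicate 3, iBAT SVF 12 weeks replicate 3, or sBAT SVF 12 weeks replicate 1 or 2. The share of all genes called was then 0.444% to 2.08%, 6.88% to 25.2% and 6.25% to 22.8%, in that order. In the interaction it was 6.25% to 7.73% without the libraries just named. Apart from scaling and filtering the cause was not tested. With a replicate block 9 genes were called in total iBAT (43.7% of all genes), 15 in the iBAT SVF (35.6%) and 11 in the sBAT SVF (42.4%). Between depots at 12 weeks 11 were called (21%), and in the interaction 8 (15.7%). The calls lost under the block were FZD2 and SFRP2 in total iBAT, WNT2B in the iBAT SVF, WNT5B in the sBAT SVF and TCF7 in the interaction. Values near 0 FPKM are the least precise, and the absolute depth is unknown.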
